A study of Mus musculus with 3 samples.

Results

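InjuredCD is the cluster of collecting duct cells that the authors' annotation of the mouse renal medulla names as injured. Its members are all cells whose deposited cluster label is InjuredCD, and each of them also carries the cell type label CD. There are 4034 of them among 49021 CD cells and 181257 cells in all, and the authors divided the CD cells into 6 clusters. The authors' label is the whole rule, and UMI counts, gene numbers and mitochondrial shares are no part of it.

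The collecting duct carries urine from the cortex through the outer and inner medulla to the tip of the papilla, and its principal cells reabsorb water through aquaporins under the control of vasopressin. In the inner medulla the duct also moves urea into the interstitium, which is part of how urine is concentrated. When the ureter is blocked, back pressure reaches the collecting duct, and stressed tubular cells are known to switch on secreted proteins such as lipocalin 2 (NGAL, the product of Lcn2). Lcn2 is the marker given for InjuredCD. The expression of single genes was not analysed here, so the name could not be checked against Lcn2 or against collecting duct markers, and it is used below only as the authors' label.

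The cells came from dissected renal medullas of male BALB/c mice, called papillae in the supplementary methods, with 3 to 4 in each pool. Healthy controls gave 4 pools, and mice at day 28 and day 84 after reversible unilateral ureteral obstruction (R-UUO) gave 4 and 2 pools. In R-UUO a clamp closes the left ureter and is later removed, and in the long-term studies the opposite kidney is then taken out. Healthy controls had neither operation, so the effects of the obstruction and of the nephrectomy cannot be told apart. RNA was measured by a probe-based assay in fixed single cells, and each cell's size of library is given as its number of unique molecular identifiers (UMIs, each standing for 1 counted molecule).

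Some facts of the whole series touch every value below. Pools held 13013 to 24338 cells and 2070 to 7072 CD cells. The median UMI count over all cells of a pool was 1139 to 1578 in the controls, 1566 to 3302 at day 28 and 751 to 911 at day 84. Droplet barcodes were shared by a median of 25.4% between pools of the same condition and 2.78% otherwise, so the conditions look like separate droplet runs, and run and condition cannot be told apart. The pool of 3 to 4 medullas was the replicate, and p-values measure the spread between pools of the same run. The proximal tubule, a cell type from outside the papilla, made up 0.113% to 3.02% of cells in control pools, 2.95% to 22.8% at day 28 and 3.60% to 7.64% at day 84, and the part of dissection in this was not tested. Control 1 differed from the other 9 pools in that its UMI counts held fractions. In pool D84 2 no CD cell had a mitochondrial UMI, and 96.7% of all its cells had none. The day 84 differences in mitochondrial percent, and their changes from the controls, are therefore given with and without that pool. Wherever a day 84 pool is left out, the lone remaining pool is assumed to vary like the pools of the other conditions, which supply all of the spread behind its p-value.

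The main comparison asked how many collecting duct cells carried the injured label in each condition. The authors drew this label from the transcriptomes of these same cells, with all conditions combined. In its reclustering of the duct, the paper describes the injured cluster as present only after R-UUO. The p-values for shares and ratios therefore describe how steady the difference was between pools, and are no independent test of the label. InjuredCD cells were rare in healthy medullas and common at both times after R-UUO. The 4 control pools held 12, 17, 8 and 19 of them, the day 28 pools 337, 395, 399 and 808, and the day 84 pools 1173 and 866. As a share of CD cells they made up 0.178%, 0.257%, 0.170% and 0.269% in the controls. At day 28 the share was 15.2%, 19.1%, 11.8% and 28.7%, and at day 84 it was 18.5% and 12.3%. Every pool after R-UUO lay above every control pool, and the day 84 values fell within the range of the day 28 pools.

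The odds of being an InjuredCD cell among CD cells rose by 6.62 on the log2 scale at day 28 (SE 0.359, limma adjusted p = 5.99e-09), a 98.2-fold change with a 95% interval of 56.8 to 170. At day 84 the rise was 6.32 (SE 0.440, limma adjusted p = 8.74e-08), or 79.9-fold with a 95% interval of 40.9 to 156. Across the 6 CD clusters, 83.3% passed the threshold of an adjusted p of 0.05 at day 28 and 50% did so at day 84, so passing it was common in this comparison. The next largest rise among the CD clusters was that of Uro, with 1.98 (SE 0.295) at day 28 and 2.57 (SE 0.362) at day 84. Between day 28 and day 84 the log2 odds differed by -0.30 (SE 0.440, limma adjusted p = 0.614), and the 95% interval of this difference ran from -1.26 to 0.67. The exact two-sided permutation test over pools gave p = 0.0286 for day 28 and 0.0667 for day 84, each the smallest value that its number of pools allows.

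**Figure D1:**
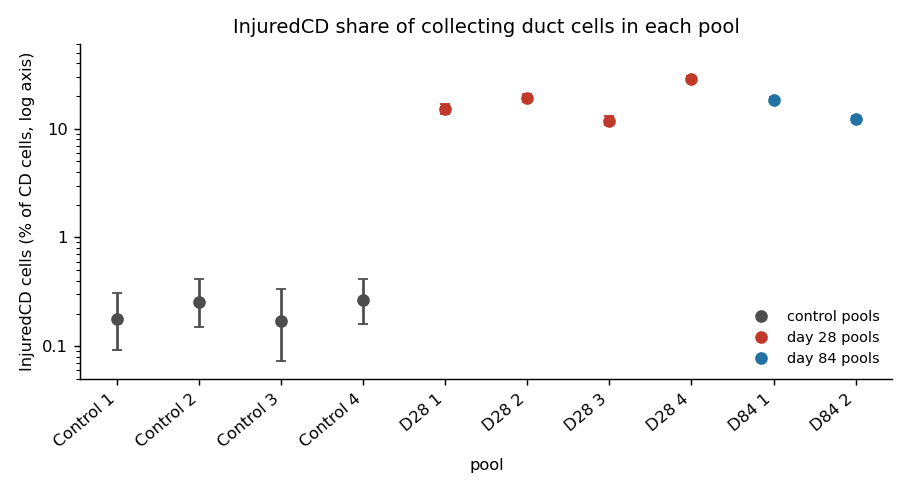
InjuredCD cells as a percentage of the CD cells of each pool, on a log axis, with 1 point for each of the 10 pools and bars for the exact 95% binomial interval, which covers counting error only. The control pools lie between 0.170% and 0.269% and the pools after R-UUO between 11.8% and 28.7%.

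The share of CD cells could also move because other CD cells were lost, so the cells were counted against all cells of the pool. The share of all cells was 0.0614%, 0.0698%, 0.0555% and 0.0935% in the controls. In the day 28 pools it was 2.59%, 2.82%, 2.42% and 5.19%, and in the day 84 pools 5.93% and 3.65%. The odds rose on the log2 scale by 5.48 at day 28 (SE 0.314, limma adjusted p = 9.91e-07) and by 6.10 at day 84 (SE 0.384, limma adjusted p = 2.27e-06). Of all 25 clusters, 88% passed the threshold at day 28, 52% by being higher, and 48% passed at day 84, 36% by being higher. Day 84 against day 28 gave 0.61 (SE 0.384, limma adjusted p = 0.332, 95% interval -0.26 to 1.48), with 8% of the clusters passing. Pool D28 4 stood above the other day 28 pools on both denominators. It also held the fewest inner medullary cells, with deepIM-CD and IM-CD together at 9.10% of its CD cells against 22.8% to 41.3% in the other day 28 pools, and the fewest proximal tubule cells of that time. The part of tissue composition in its higher share was not tested.

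Set against each other CD cluster of the same pool, InjuredCD rose in all 5 ratios at both times (100% called at day 28 and at day 84). All 5 ratios share the InjuredCD count, so these calls largely repeat the rise in share and are not separate results. The exact permutation test gave p = 0.0667 for each of the 5 at day 84, the smallest that 4 pools against 2 allow. The largest changes were against the inner medullary clusters. For every 100 cells of deepIM-CD, named for the deepest inner medulla, the control pools held 0.507 to 0.804 InjuredCD cells, the day 28 pools 42.4 to 898 and the day 84 pools 90.3 and 139. The log2 ratio rose by 7.87 at day 28 (SE 0.746, limma adjusted p = 5.43e-07) and by 7.37 at day 84 (SE 0.914, limma adjusted p = 7.17e-06). The day 28 rise was 7.04 without pool D28 4, which gave the 898, and 8.50 without pool D28 3, and it passed in both. Against IM-CD, the other inner medullary cluster, the changes were 7.79 (SE 0.591, limma adjusted p = 7.17e-08) and 6.98 (SE 0.723, limma adjusted p = 2.15e-06), the latter being 6.16 without pool D84 1 and 7.80 without pool D84 2 and passing in both.

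Ratios to the outer medullary ducts moved less far, but still by more than the spread between pools. Per 100 cells of OM-CD_a, the larger outer medullary cluster in the controls, there were 0.541 to 1.13 InjuredCD cells in control pools, 58.9 to 124 at day 28 and 55.6 and 88.9 at day 84. These were log2 changes of 6.43 (SE 0.366, limma adjusted p = 1.53e-08) and 6.36 (SE 0.449, limma adjusted p = 1.38e-07). Against OM-CD_b the changes were 4.80 (SE 0.342) and 4.93 (SE 0.418), and at day 84 InjuredCD outnumbered this cluster in both pools, with 100.5 and 125 cells per 100. Against Uro, the urothelium that lines the papilla, they were 4.50 (SE 0.338) and 3.78 (SE 0.414). None of the 5 ratios differed between day 84 and day 28 by limma (0 of 5 called, 0 at an unadjusted p under 0.05).

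**Figure D2:**
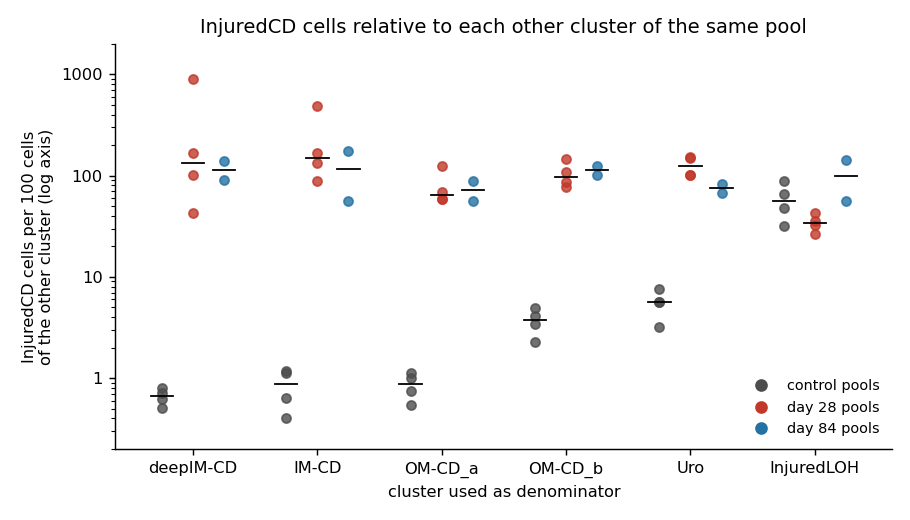
InjuredCD cells per 100 cells of each other CD cluster, and of InjuredLOH, in the same pool, on a log axis. Points are pools and black lines are medians. Against the 5 CD clusters the control pools lie at 0.404 to 7.60 and the pools after R-UUO at 42.4 to 898, while against InjuredLOH the control and R-UUO pools overlap.

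InjuredLOH is the cluster that carries the injured label in the loop of Henle, the nephron segment that runs beside the duct and builds the medullary salt gradient. Its cells and InjuredCD cells were both few in the controls, so their ratio asks whether the 2 labels moved together. InjuredLOH made up 0.148% to 0.495% of loop cells in the controls, 15.5% to 35.4% at day 28, and 28.4% and 6.39% at day 84. Per 100 InjuredLOH cells there were 48.0, 31.5, 88.9 and 65.5 InjuredCD cells in the control pools, 43.2, 32.8, 26.8 and 35.9 in the day 28 pools, and 55.9 and 144 in the day 84 pools. The control and day 28 ranges overlapped, and the log2 ratio did not change past the threshold at day 28 (-0.69, SE 0.447, limma adjusted p = 0.142) or at day 84 (0.70, SE 0.548, limma adjusted p = 0.221). Under a stricter filter, with at least 500 detected genes and at most 5% mitochondrial UMIs required of each cell, the day 28 value was -1.01 and passed (limma adjusted p = 0.0318). The day 84 value moved with single pools, at 1.38 without pool D84 1 (limma adjusted p = 0.0598) and 0.02 without pool D84 2 (limma adjusted p = 0.979). In the same fit 85.7% of 7 ratios to loop clusters were called at each time, and the ratio to InjuredLOH was the exception. These ratios also share the InjuredCD count, so the calls are not separate results.

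Both day 84 ratios lay above all 4 day 28 ratios. Their difference was 1.39 on the log2 scale with a 95% interval of 0.23 to 2.56, which missed the threshold after adjustment (limma adjusted p = 0.0780, 0% of 7 ratios called). In pool D84 1 the InjuredCD share of CD cells was 18.5% and the InjuredLOH share of loop cells 28.4%, while in pool D84 2 they were 12.3% and 6.39%. Without pool D84 1 the difference was 2.07 (limma adjusted p = 0.0451), and without pool D84 2 it was 0.71 (limma adjusted p = 0.510), each with a single pool for day 84. A healthy control pool, Control 3, lay at 88.9 per 100, a value resting on 8 InjuredCD and 9 InjuredLOH cells.

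The next comparison asked how much RNA was counted in InjuredCD cells relative to the other collecting duct cells of the same pool. The clusters were drawn from the transcriptomes of these same cells, so differences between clusters describe the annotation as well as the cells, and the count of UMIs was not itself a rule of membership. The median InjuredCD cell had 1723, 2255, 1242 and 1108 UMIs in the control pools. It had 6456, 3868, 3875 and 2142 at day 28, and 1903 and 1874 at day 84. All other CD cells of the same pools had medians of 1252, 2479, 1414 and 2147 in the controls, 3864, 2657, 2782 and 2261 at day 28, and 1330 and 880 at day 84. InjuredCD thus lay below the other CD cells in 3 of 4 control pools and above them in 5 of 6 pools after R-UUO, with D28 4 the exception. The control medians rest on 8 to 19 cells each.

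In the controls InjuredCD ranked 4 from the top among the 6 CD clusters by median UMI count in all 4 pools. It lay below deepIM-CD, with a log2 difference of -2.05 (SE 0.163, limma adjusted p = 1.29e-09), which is 0.242 of that cluster's count. It was also below Uro, at -1.74 (SE 0.145, limma adjusted p = 1.43e-09), and below OM-CD_b, at -1.11 (SE 0.198, limma adjusted p = 4.63e-05). It lay above IM-CD by 0.42 (SE 0.170, limma adjusted p = 0.0332) and above OM-CD_a by 0.47 (SE 0.172, limma adjusted p = 0.0219). Both of these small differences missed the threshold without Control 1 or without Control 2, at 0.34 and 0.29 for IM-CD and 0.40 and 0.36 for OM-CD_a, and IM-CD also missed it without pool D28 3 (0.42, limma adjusted p = 0.0516) and without the 5% of cells with the most UMIs in each pool (0.31). All 5 differences within control pools passed (100% called).

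After R-UUO the picture by cluster was different. InjuredCD lay above IM-CD by 1.34 at day 28 (SE 0.170, limma adjusted p = 8.81e-07), a 2.54-fold higher UMI count, and by 1.59 at day 84 (SE 0.241, limma adjusted p = 8.29e-06), 3.02-fold. It lay above OM-CD_a by 0.87 (SE 0.172, limma adjusted p = 1.42e-04) and by 1.39 (SE 0.243, limma adjusted p = 4.56e-05). Both were higher in 6 of 6 pools after R-UUO (exact sign-flip permutation p = 0.0312, the smallest that 6 pools allow). Against deepIM-CD the differences were -0.20 at day 28 (limma adjusted p = 0.314) and -0.16 at day 84 (limma adjusted p = 0.497), and against Uro 0.10 and 0.17 (limma adjusted p = 0.497 for both). Against OM-CD_b the difference was -0.54 at day 28 (SE 0.198, limma adjusted p = 0.0219), and it missed the threshold without pool D28 3 (-0.62) and without pool D28 4 (-0.28), where InjuredCD had 2142 UMIs and OM-CD_b 5395. The InjuredCD median was below that of OM-CD_b in 5 of 6 pools after R-UUO (exact sign-flip permutation p = 0.0625). Within day 28 pools 60% of the 5 differences were called, and within day 84 pools 40%.

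**Figure D3:**
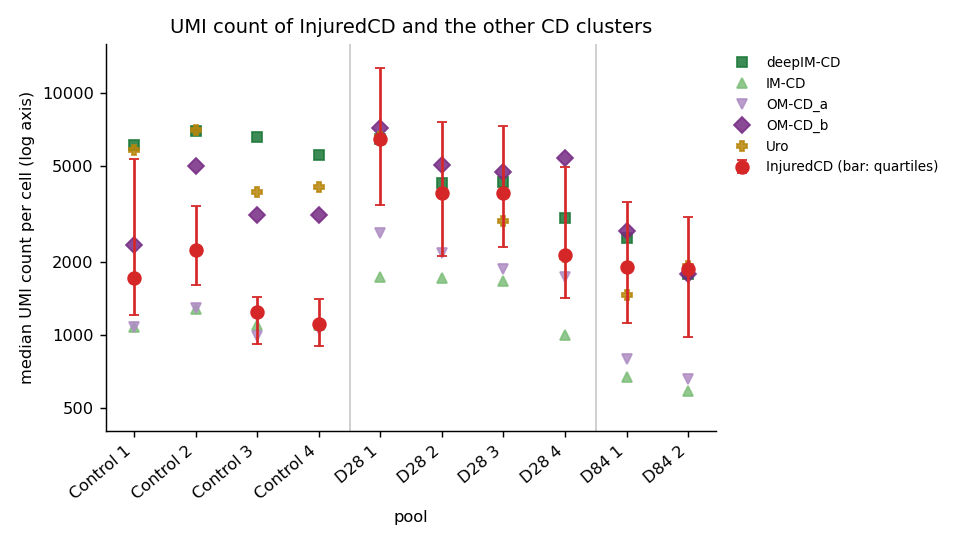
Median UMI count per cell of the 6 CD clusters in each pool, on a log axis. Red circles are InjuredCD, with bars from the lower to the upper quartile of its cells, and grey lines separate control, day 28 and day 84 pools. Counted from the top, InjuredCD ranks 4 of 6 in each control pool, 3 in 3 of the 4 day 28 pools, and 3 and 2 at day 84.

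The difference between InjuredCD and its neighbours therefore changed between conditions. The gap to deepIM-CD rose by 1.85 at day 28 (SE 0.230, limma adjusted p = 1.04e-06) and by 1.88 at day 84 (SE 0.282, limma adjusted p = 7.30e-06). The gap to Uro rose by 1.84 and 1.90, and that to IM-CD by 0.92 and 1.17. The median UMI counts of the pools averaged 1582 for InjuredCD in the controls, 4085 at day 28 and 1888 at day 84. For deepIM-CD they averaged 6307, 4523 and 2145, and for Uro 5219, 3872 and 1697. The gaps to OM-CD_a and OM-CD_b passed at day 84 alone (0.92 and 0.90, limma adjusted p = 0.0128 and 0.0316), with 0.40 and 0.57 at day 28. Without pool D28 4 both day 28 changes passed as well, at 0.59 and 0.84, and that of OM-CD_b also did so without Control 1 (0.79) or the cells with the most UMIs (0.59). No gap differed between the 2 times (limma, 0 of 5 called, 0 at an unadjusted p under 0.05). In all, 60% of these changes were called at day 28 and 100% at day 84. Without pool D84 2 the day 84 change was 0.78 for OM-CD_a and 0.62 for OM-CD_b, and neither passed. The OM-CD_b change also missed the threshold without Control 3 (0.82), Control 4 (0.76) or D28 3 (0.90). With means of log2 values in place of medians, the day 84 changes for IM-CD, OM-CD_a and OM-CD_b were 0.86, 0.63 and 0.59 and did not pass. Since the conditions look like separate droplet runs, changes in these gaps cannot be told apart from changes between runs.

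Because InjuredCD cells were read more deeply than many of their neighbours after R-UUO, their share was counted within ranges of UMI count. At day 28 the mean share of CD cells was 11.2% ± 7.27 (SD, n = 4 pools) among cells with under 1000 UMIs, 16.4% ± 11.7 from 1000 to 2000, 15.3% ± 6.34 from 2000 to 4000, 22.3% ± 8.02 from 4000 to 8000 and 25.7% ± 6.15 at 8000 and over. At day 84 it went from 8.67% ± 3.63 (SD, n = 2 pools) under 1000 UMIs to 26.4% ± 2.99 at 8000 and over. In the controls the mean was 0.294%, 0.297%, 0.236%, 0.0623% and 0.164% over the same ranges, on 14, 25, 8, 3 and 6 cells. By these means InjuredCD was a larger part of the deeply read CD cells than of the shallow ones at both times. Pool D28 4 did not follow this order throughout. Its share was 21.2% under 1000 UMIs, 33.2% from 1000 to 2000 and 30.4% at 8000 and over.

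The rise against controls was found within every range. Among cells under 1000 UMIs the log2 odds changed by 5.22 at day 28 (limma adjusted p = 3.29e-05) and by 4.91 at day 84 (limma adjusted p = 4.13e-04). From 4000 to 8000 UMIs the fitted changes were 8.09 and 8.30, but the controls held only 3 InjuredCD cells there, with 0 in 2 of the 4 pools, so these sizes depend on the 0.5 cells added before taking logs. In the ranges above 2000 UMIs at least 1 control pool had 0 such cells, and the sizes of the rise were not ranked. When the CD cells of every pool were weighted to the same mix of ranges, the changes were 6.40 (SE 0.388) and 6.66 (SE 0.476), and day 84 against day 28 was 0.26 (SE 0.476, limma adjusted p = 0.585). Under that weighting the shares were 12.2%, 18.3%, 10.5% and 28.3% at day 28 and 21.2% and 17.0% at day 84.

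**Figure D4:**
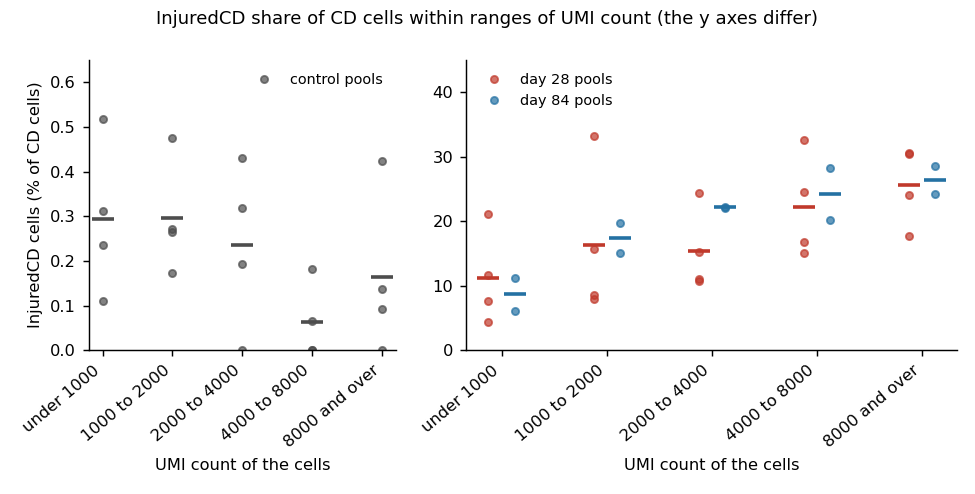
InjuredCD cells as a percentage of the CD cells that fall in each range of UMI count, in the control pools (left) and the pools after R-UUO (right, with a different y axis). Points are pools and short bars are means of the pools. The day 84 mean rises from 8.67% under 1000 UMIs to 26.4% at 8000 and over.

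A wide spread of UMI counts lay within InjuredCD itself. The upper quartile was 3.13 to 3.71 times the lower quartile in the 6 pools after R-UUO. At day 28 there were 24 InjuredCD cells with over 50000 UMIs, 9, 7, 3 and 5 per pool, and at day 84 there were 0. Control 2 had 2 such cells, and the larger had 183835 UMIs. At the low end, 6 InjuredCD cells at day 28 and 69 at day 84 had under 500 UMIs.

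The number of detected genes, a measure of how many kinds of transcript were seen in a cell, followed the UMI count. The median InjuredCD cell had 1442, 1621, 970 and 901 genes in the control pools, 3215, 2160, 2135 and 1494 at day 28, and 1347 and 1230 at day 84. At day 28 this was 0.95 above IM-CD on the log2 scale (SE 0.138, limma adjusted p = 1.61e-06) and 0.57 above OM-CD_a (SE 0.136, limma adjusted p = 6.45e-04). At day 84 the differences were 1.26 and 1.09, or 2.40-fold and 2.13-fold. The differences from the other 3 clusters did not pass at either time (40% called at each time), except that from OM-CD_b at day 28 without pool D28 1 (-0.40, limma adjusted p = 0.0284). In the controls InjuredCD had fewer genes than deepIM-CD, OM-CD_b and Uro, with differences of -1.36, -0.75 and -1.16, and more than IM-CD and OM-CD_a, with 0.34 and 0.39 (100% called). The last 2 differences missed the threshold without Control 1 (0.26 and 0.32) or Control 2 (0.24 and 0.30), and that from IM-CD also without the cells with the most UMIs (0.25). The change in the OM-CD_b difference from the controls to day 28 did not pass, but did so without Control 1 (0.65), without pool D28 4 (0.68) or without the cells with the most UMIs (0.50).

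Detected genes were then compared between cells of similar UMI count, matched within bins of 0.5 on the log2 scale, to reduce the effect of depth. InjuredCD cells carried more genes per cell than deepIM-CD and OM-CD_b cells of the same bins at day 28. The difference was 0.16 on the log2 scale against deepIM-CD (SE 0.0284, limma adjusted p = 1.24e-05), or 1.12-fold, and 0.17 against OM-CD_b (SE 0.0253, limma adjusted p = 1.37e-06), or 1.13-fold. Pool by pool, the day 28 differences from OM-CD_b ran from 0.13 to 0.23 and those from deepIM-CD from 0.07 to 0.23. At day 84 they were 0.07 (limma adjusted p = 0.225) and 0.08 (limma adjusted p = 0.138), the latter passing when narrower bins of UMI count were used (0.09, limma adjusted p = 0.0255). Both were above 0 in 6 of 6 pools after R-UUO (exact sign-flip permutation p = 0.0312). In the controls OM-CD_b alone passed (0.08, limma adjusted p = 0.0130), and it did not without Control 2 (0.08, limma adjusted p = 0.0739), without Control 4 (0.07, limma adjusted p = 0.167) or under the stricter filter (0.05, limma adjusted p = 0.117). Without Control 3 the difference from deepIM-CD also passed (0.08, limma adjusted p = 0.0338).

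Against IM-CD, OM-CD_a and Uro the mean matched differences were within 0.05 of 0 at every time, and none passed (40% of the 5 differences called at day 28, 20% in the controls, 0% at day 84). No matched difference changed between conditions by limma (0 of 15 called, 3 at an unadjusted p under 0.05). The excess over deepIM-CD at day 28 against the controls was 0.11 (SE 0.0402, limma adjusted p = 0.133), and it passed without pool D28 4 (0.14, limma adjusted p = 0.00696), without Control 2 (0.15, limma adjusted p = 0.00995) and under the stricter filter (0.12, limma adjusted p = 0.0356). That over OM-CD_b also passed under this filter (0.12, limma adjusted p = 0.0210) and without pool D28 4 (0.10, limma adjusted p = 0.0491). Between day 84 and day 28 the difference from deepIM-CD changed past the threshold without pool D28 4 (-0.13, limma adjusted p = 0.0462).

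**Figure D5:**
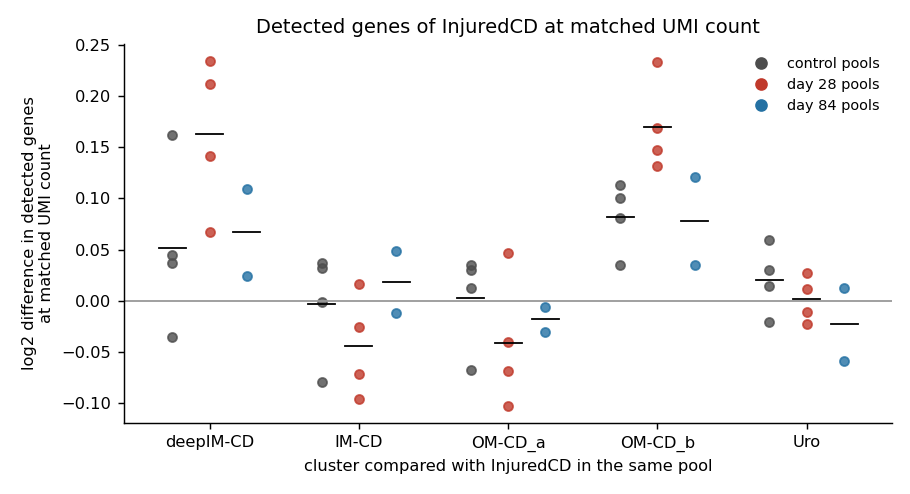
Difference in detected genes between InjuredCD and each other CD cluster at matched UMI count, as log2 values, for each pool (points) with the mean of the pools (black lines). All day 28 and day 84 pools lie above 0 for deepIM-CD and OM-CD_b, and for the other 3 clusters the pools lie on both sides of 0 or close to it.

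InjuredLOH was the cluster most like InjuredCD by name, and their depth was compared in the same way. InjuredCD had more UMIs than InjuredLOH in 6 of 6 pools after R-UUO, by 0.43 at day 28 (SE 0.179, limma adjusted p = 0.0347) and by 0.74 at day 84 (SE 0.253, limma adjusted p = 0.0150), and in 3 of 4 control pools (0.33, limma adjusted p = 0.0988). These differences did not change between conditions past the threshold. At matched UMI count, however, InjuredCD cells had slightly fewer genes than InjuredLOH cells at day 28, a log2 difference of -0.07 (SE 0.0233, limma adjusted p = 0.0208), or 0.953 times as many, and they were lower in 6 of 6 pools after R-UUO. At day 84 the difference was -0.04 and did not pass (limma adjusted p = 0.412). In the controls it was 0.05, higher in 4 of 4 pools, and did not pass either (limma adjusted p = 0.170). Its change from the controls was -0.12 at day 28 (SE 0.0330, limma adjusted p = 0.0208) and -0.08 at day 84 (SE 0.0404, limma adjusted p = 0.149).

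The share of UMIs from mitochondrial transcripts, which is often read as a sign of metabolic activity or of leaky cells, was the last measure. In InjuredCD cells it averaged 1.11%, 1.98%, 1.17% and 0.867% in the control pools. It was 0.0982%, 0.0214%, 0.0239% and 0.131% in the day 28 pools, and 0.0734% and 0% in the day 84 pools. In the other CD cells it averaged 1.70% to 2.83% in the controls, 0.0337% to 0.303% at day 28, and 0.0905% and 0% at day 84. Among all cells of a pool, 0.0164% to 1.18% had no mitochondrial UMI in the controls, 34.6% to 74.3% at day 28 and 59.9% and 96.7% at day 84. The low values after R-UUO were thus seen across CD cells and beyond them, and run and condition cannot be told apart.

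Within control pools InjuredCD had a lower mitochondrial share than the deeply read clusters. It lay below deepIM-CD, with a difference of -2.81 percentage points (SE 0.169, limma adjusted p = 4.87e-07), below OM-CD_b, at -2.43 (SE 0.150, limma adjusted p = 4.87e-07) and below Uro, at -1.52 (SE 0.195, limma adjusted p = 1.42e-04). It lay above IM-CD by 0.29 (SE 0.0571, limma adjusted p = 0.00270) and above OM-CD_a by 0.23 (SE 0.0665, limma adjusted p = 0.0228), and these last 2 were 0.11 and 0.05 and did not pass without the 5% of cells with the most UMIs in each pool. The difference from OM-CD_a also missed the threshold without Control 1 (0.22), Control 2 (0.18) or Control 3 (0.21). After R-UUO no difference in percentage points passed (limma, 0 of 5 called at either time, 0 at an unadjusted p under 0.05), with levels so near 0 that this scale has little room. At day 84 these differences ran from -0.03 to 0.02 points, and from -0.06 to 0.05 without pool D84 2, again with 0 of 5 called. On a scale of log2 ratios of means, added after the values were seen and without pool D84 2, InjuredCD was below OM-CD_b, at -2.03 (limma adjusted p = 9.18e-04) and below Uro, at -1.34 (limma adjusted p = 0.0159) at day 28. The control differences from IM-CD and OM-CD_a were 0.37 and 0.27 on that scale and did not pass (limma adjusted p = 0.543 and 0.747). On that scale also 0 of 15 changes between conditions passed by limma, against 8 in percentage points (80% called at each time), but that fit had pool D84 1 alone for day 84, so the 2 counts do not rest on the same pools. Without pool D84 2 there were 3 of 5 in points at day 84 in place of 4, that against IM-CD being -0.24 (limma adjusted p = 0.213).

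The proportion of cells in which no mitochondrial UMI was seen was compared after each cell was reduced to 500 UMIs by calculation. At day 28, more InjuredCD cells than OM-CD_b cells had none, by 21.4 percentage points (SE 4.23, limma adjusted p = 6.77e-04), with 12.2 to 28.8 points in the 4 pools. The difference from Uro was 21.1 points (SE 5.64, limma adjusted p = 0.00820) and ran from 3.88 to 51.5, the highest value coming from D28 4, and without that pool it was 11.0 points (limma adjusted p = 0.0159). The other 3 clusters were not separated (40% called). At day 84 the differences from OM-CD_b and Uro were 10.3 and 13.0 points in pool D84 1 and 0 in pool D84 2, where no CD cell had a mitochondrial UMI. Over the 6 pools after R-UUO both differences were above 0 in 5, and the exact sign-flip permutation test gave p = 0.0625 for each. In the same pool D84 2, 89.8% of cells of ISOM-TAL, the thick limb cluster of the inner stripe, had at least 1 mitochondrial UMI. With all pools, none of the 5 differences changed between day 28 and the controls by limma (0 called, 2 at an unadjusted p under 0.05). That from OM-CD_b did pass without pool D28 2 (21.4 points, limma adjusted p = 0.0177), without pool D28 4 (15.9, limma adjusted p = 0.0140) or with cells reduced to 1000 UMIs (24.4, limma adjusted p = 0.00874).

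The droplets gave a last check on the members. A droplet barcode shared with another cell of the same run was found for 53.6% of InjuredCD cells in the controls, 46.3% at day 28 and 26.3% at day 84, against 57.2% to 57.8%, 44.7% to 51.3% and 23.1% to 25.3% in the other 5 CD clusters. Of the InjuredCD cells, 0 in the controls, 35 at day 28 and 40 at day 84 shared a droplet with another InjuredCD cell of another pool. With at least 500 detected genes and at most 5% mitochondrial UMIs required, all control InjuredCD cells, 98.2% to 100% of those at day 28, and 96.2% and 88.1% at day 84 were kept, and the rise in their share of CD cells kept its direction and its call.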

How the data were processed

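Medullary cells of 4 control pools, 4 pools at day 28 and 2 at day 84 were measured with a probe-based fixed RNA assay. Per the methods and the submitters' processing notes, UMIs were counted with Cell Ranger 7.1 on mm10. The stated filter required at least 300 genes and at most 10% mitochondrial reads (1 InjuredCD cell lies below that gene minimum). By the same sources, ambient RNA was corrected with SoupX, doublets were removed with scDblFinder and by mixed signatures, and cells were clustered with Seurat. The authors deposited for each cell a UMI count (whole-number counts in 9 pools, and in pool Control 1 expected counts, which hold fractions), a count of detected genes and a mitochondrial percent, with pool and cluster. No column of per-sample values was left out.

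Shares were turned into log2 odds and ratios into log2 ratios after adding 0.5 cells. Differences between clusters were taken within each pool, on log2 medians of UMIs and genes, on mean percent, and for genes at matched depth within bins of 0.5 on the log2 UMI scale. All were fitted with limma 3.58.1 (R 4.3.3) over the 3 conditions, two-sided. Benjamini-Hochberg adjustment was over the 6 CD clusters, the 25 clusters, the 5 ratios, the 7 loop ratios or the 15 differences of a measure. The depth comparison with InjuredLOH was adjusted over a larger family than these 15 differences. Exact permutation and sign-flip tests used pools. Plots used Python 3.11.15 and matplotlib 3.10.9. The fits were tested on simulated data. Clusters to be named were the 6 of the collecting duct and InjuredLOH, and ISOM-TAL was added after its values were seen. Members and lists were chosen with earlier results of these data known. Alternatives were other cell filters, denominators, added cells, summaries, depths and edgeR 4.0.16, and leaving out each pool.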

Additional observations from a re-analysis of the deposited data

Results flagged for a closer look

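Among the 64 sets of 4 pools tested for a value far from the others, 4 stood out, and chance gives about 1 in 20. Pool D28 4 held InjuredCD cells at 5.19% of all its cells, against 2.42% to 2.82% in the other day 28 pools. In the same pool the mitochondrial percent of InjuredCD minus that of Uro was -0.51 percentage points, against -0.08 to -0.01 in the others. In pool D28 1 the log2 UMI difference from IM-CD was 1.89, against 1.10 to 1.21 in the others. In pool D28 3 the log2 UMI difference from Uro was 0.39, against -0.03 to 0.03.

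Differences between InjuredCD and another cluster of the same pool that changed from the controls past the threshold were found by limma, which tested the change itself. For UMI count, the log2 changes at day 28 were 1.85 against deepIM-CD, 0.92 against IM-CD and 1.84 against Uro. At day 84 they were 1.88, 1.17 and 1.90, with 0.92 against OM-CD_a and 0.90 against OM-CD_b. For detected genes, the changes were 1.34, 0.60 and 1.23 at day 28 against deepIM-CD, IM-CD and Uro. At day 84 they were 1.28, 0.92 and 1.26 for these, 0.70 for OM-CD_a and 0.65 for OM-CD_b. Of these, IM-CD at day 28 missed the threshold without Control 3 (0.53) or D28 1 (0.48), and OM-CD_a at day 84 without Control 3 (0.65) or D84 2 (0.61) and with means of log2 values (0.53). OM-CD_b missed it in 6 of the 10 fits that leave out a pool (0.45 without D84 2), with the stricter filter (0.69) and with means of log2 values (0.51). For mitochondrial percent, in percentage points, the changes at day 28 were 2.75 against deepIM-CD, -0.29 against IM-CD, 2.24 against OM-CD_b and 1.36 against Uro. At day 84 they were 2.79, -0.26, 2.40 and 1.49, and without pool D84 2 they were 2.77, -0.24, 2.37 and 1.47, of which IM-CD did not pass. The IM-CD change at day 84 missed the threshold in 8 of the 10 fits that leave out a pool, and without the cells with the most UMIs neither the day 28 value (-0.11) nor the day 84 value (-0.09) passed. The levels fell to near 0 after R-UUO, so a difference in points had to shrink, and on log2 ratios, with pool D84 1 alone for day 84, 0 of 15 changes passed and those against OM-CD_b and Uro at day 28 had the other sign, at -0.44 and -0.15. Detected genes at matched UMI count against InjuredLOH changed by -0.12 at day 28.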

How the results depend on the processing

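The rise in the InjuredCD share of CD cells kept its direction in all alternatives, from 5.22 to 8.09 at day 28 and from 4.91 to 8.30 at day 84 (the highest from a UMI range with 3 control cells), and its call in all except the exact permutation test at day 84, where 4 pools against 2 cannot go below p = 0.0667 (change 6.32, and 6.10 for the share of all cells). For the share of all cells the ranges were 5.23 to 5.72 and 5.73 to 6.46. The numbers of InjuredCD cells relative to each other CD cluster gave 5, 5 and 0 calls under every filter and with every pool left out, and 0 of the 5 at day 84 by the exact permutation test, with the same smallest p. Against InjuredLOH, the stricter cell filter gave -1.01 at day 28 (limma adjusted p = 0.0318), and leaving out each pool gave 0.71 to 2.07 for day 84 against day 28.

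Among differences in depth, changes in UMI count past the threshold went from 8 to 5 with means of log2 values. With a pool left out, those in detected genes ranged from 5 to 9, those in genes at matched UMI count from 0 to 3 (2 with the stricter filter, 0 in the main analysis) and those in cells with no mitochondrial UMI from 0 to 1 (1 when thinned to 1000 UMIs). For mitochondrial percent, differences within conditions went from 5 to 3 without the cells with the most UMIs, and on log2 ratios without pool D84 2, chosen after seeing the data as were the UMI ranges, their common mix, the fit without controls and the comparison of depth with InjuredLOH, changes went from 8 to 0. The sign turned there in 3 of them: -0.44 against OM-CD_b and -0.15 against Uro at day 28, and 1.03 against IM-CD at day 84. With a pool left out, changes in mitochondrial percent past the threshold ranged from 7 to 10. The change against OM-CD_a passed without Control 4, at -0.30 percentage points for day 28 and -0.28 for day 84. At day 28 it also passed with summed mitochondrial UMIs (limma adjusted p = 0.0352). The causes were not tested. No paired analysis was possible because the labels give the 3 samples no replicate numbers and pool numbers name different mice. Counting error limits the controls, where a pool holds 8 to 19 InjuredCD cells, and the 2 pools limit day 84.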

Other observations

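In pairs drawn cell by cell, a random InjuredCD cell had more UMIs than a random other CD cell of its pool in 44.0% of pairs in control pools (SD 13.4, 4 pools), in 58.7% at day 28 (SD 5.50, 4 pools) and in 64.2% at day 84 (SD 4.11, 2 pools). Against IM-CD the share of pairs was 66.9% (SD 12.7), 85.4% (SD 3.23) and 89.0% (SD 0.473), and against deepIM-CD it was 12.1% (SD 10.8), 43.5% (SD 7.61) and 43.3% (SD 8.50). InjuredCD and deepIM-CD cells thus overlapped widely in UMI count after R-UUO, and the cells of the 2 clusters were mostly apart in the controls.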
